A study of Mus musculus with 12 samples.

Results

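The 39 genes described here encode actins, myosin subunits, tropomyosins, actin crosslinkers, focal adhesion proteins and the transcription factor SRF. They were matched by symbol, each to 1 row of a table of 32168 mouse genes, and all 39 were among the 16595 genes that passed the filter on low counts. The study measured total RNA of mouse embryonic fibroblasts (MEFs) taken at E13.5, at passages 4 to 10, in DMEM with glutamine, high glucose and 10% fetal bovine serum. Cells were either wild type (WT) or double knockout (DKO) for the kinase genes Lats1 and Lats2. Each genotype received the vehicle DMSO or 1 uM MGH-CP1 (CP1) in DMSO, an inhibitor of the palmitoylation of TEAD transcription factors, for 2 or 4 days. Of the 8 groups of genotype, treatment and day, each CP1 group had 2 libraries and each DMSO group had 1. The labels do not say how the knockout was made, from how many embryos the cells came, or whether repeats were separate cultures, so the p-values below measure only the spread between these libraries, which may be technical.

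SRF binds CArG boxes in the promoters of actin, myosin and adhesion genes, and its cofactors MRTF-A and MRTF-B enter the nucleus when monomeric actin is used up in filaments. In fibroblasts, the products of these genes form stress fibres, contractile bundles of actin and nonmuscle myosin II that end at focal adhesions, and smooth muscle actin marks the contractile fibroblast state. LATS1 and LATS2 phosphorylate the coactivators YAP and TAZ, which otherwise bind TEAD factors at their targets.

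RefSeq promoter entries (GRCm38.p6) matched 34 of the 39 genes, and 9 of these 34 (26.5%) held a CArG box within the 250 bases before the gene's start, beside 439 of 27025 genes (1.62%). The letters GGAATG, a core recognised by TEAD factors, stood on either strand of this window in 13 of the 34 (38.2%), beside 3880 of all 27025 genes (14.4%), and in Vcl, which held both motifs, they did not overlap. The 39 genes were chosen to include SRF targets, so their larger share of CArG boxes partly follows from that choice and was not tested. A match of letters is a description and not a measured binding site. Only exact matches to CCWWWWWWGG (W for A or T) were counted and marked as CArG boxes, so a box with a mismatch was missed. Among genes with either motif, CP1 in DKO cells raised Filip1l (CArG box), Mylk and Lmod1 (GGAATG). It lowered the rest except Lpp (GGAATG), which was not called. Of all 39 genes CP1 in DKO cells lowered 31, beside 27.6% of all genes tested, so a fall was not particular to genes with a motif. The bases of 3 genes that the annotation puts in no exon are shown, with the matches in capitals, and were picked from genes that CP1 lowered in DKO cells. They lie at chr2:156775214-156775419 on the plus strand for Myl9, at chr17:46556176-46556412 on the minus strand for Srf and at chr14:20929148-20929397 on the plus strand for Vcl.
Myl9: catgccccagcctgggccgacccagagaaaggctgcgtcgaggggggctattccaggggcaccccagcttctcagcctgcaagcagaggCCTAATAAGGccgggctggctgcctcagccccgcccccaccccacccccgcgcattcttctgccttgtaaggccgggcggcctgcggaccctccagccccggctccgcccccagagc
Srf: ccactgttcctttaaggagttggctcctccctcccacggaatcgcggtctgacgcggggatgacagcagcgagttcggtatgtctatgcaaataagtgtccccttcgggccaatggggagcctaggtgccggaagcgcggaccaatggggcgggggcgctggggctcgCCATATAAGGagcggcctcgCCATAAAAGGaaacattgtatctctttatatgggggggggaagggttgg
Vcl: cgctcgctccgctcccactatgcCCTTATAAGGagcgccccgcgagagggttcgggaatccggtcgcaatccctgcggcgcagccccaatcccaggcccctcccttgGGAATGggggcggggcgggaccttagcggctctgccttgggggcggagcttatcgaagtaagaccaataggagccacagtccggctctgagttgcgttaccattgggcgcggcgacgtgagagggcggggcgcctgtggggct
Myl9 had 1 CArG box and Srf had 2, at 82 to 73 and 62 to 53 bases before its start. In Vcl a CArG box lay 227 to 218 bases before the start and GGAATG 143 to 138 bases before it.

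Library totals ran from 16970834 to 25299262 counts. Levels are given as CPM, the count relative to the library total after TMM scaling. As a check of the labels, Lats1 stood at 14.3 to 22.1% of its WT DMSO mean in the DKO DMSO libraries and at 31.2 to 35.6% in the DKO CP1 libraries, and Lats2 at 26.3 to 31.1% in all DKO libraries. Between the days, the chi-square over its degrees of freedom was 43.8 for the 2 DKO DMSO libraries and 1.95 for the 2 WT DMSO libraries. Between repeats it was 50.6 for WT CP1 at 2 days and 2.25 to 5.84 for the other CP1 groups. Repeat 2 of WT CP1 at 2 days had 0.0424% of its counts in rRNA and miRNA genes, against 2.51 to 3.08% in the other 3 WT CP1 libraries. The WT DMSO libraries had 0.0402 to 0.0411%, so repeat 2 was like the controls and the other 3 were not. A high share thus went largely together with CP1 in WT cells, and its part in the CP1 effects was not tested. Without repeat 2, CP1 in WT cells raised 8 and lowered 2 of the 39 genes. Fibroblast markers summed to 23900 to 24300 CPM in WT DMSO, 15200 to 21600 in WT CP1, 9590 to 10100 in DKO DMSO, where Fap was at 0, and 12700 to 16500 in DKO CP1. Of the 9 fibroblast markers, 8 were called lower and 1 higher in DKO DMSO than in WT DMSO (34.8% and 32.7% of all genes tested). Their median log2 difference was -3.03, beside -0.06 over all genes. It was -9.76 for Lum, -9.45 for Dcn and -1.37 for the abundant Col1a1, and 0.52 for Vim, the 1 that was higher. CP1 raised 8 and lowered 1 in DKO cells (24.2% and 27.6% of all genes). In WT cells it raised 1 and lowered 5 (7.5% and 10.3% of all genes). The 8 markers of pericytes and vascular smooth muscle summed to 229 to 236 CPM in WT DMSO, 265 to 303 in WT CP1, 169 to 185 in DKO DMSO, where Myocd, Kcnj8 and Abcc9 were at 0, and 202 to 315 in DKO CP1. Skeletal muscle markers summed to at most 5.16 CPM in any library, epithelial markers to at most 12.2, macrophage markers to 4.34 to 15 and endothelial markers to 4.84 to 73.8. The part of these markers in the results below was not tested. In bulk RNA, fewer cells of a type and less RNA per cell cannot be told apart.

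Most of the 39 genes, among them Actb, Myh9, Flna, Zyx and Srf, had higher levels in DKO DMSO than in WT DMSO libraries, and CP1 lowered most of them in DKO cells. In DMSO the DKO level was higher for 24 and lower for 6 by edgeR's quasi-likelihood test at an adjusted p under 0.05, while 67.5% of all genes tested were called (32.7% higher and 34.8% lower). Their median log2 difference was 0.49, beside -0.06 over all genes. On TPM values the split was 17 higher and 9 lower, and 20 and 11 without rRNA and miRNA genes. CP1 in DKO cells lowered 31 and raised 5, while it called 51.9% of all genes (24.2% higher and 27.6% lower), with a median log2 fold change of -0.78 for the 39 and 0.02 for all genes. Both comparisons share the DKO DMSO libraries. On TPM values the falls of Cnn3, Myh10, Myl6, Myl9, Pdlim7, Srf, Tagln, Tagln2, Tpm2 and Vcl with CP1 in DKO cells were not called, which left 21.

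In WT cells CP1 raised Acta2, Actb, Actg1, Myl9, Tpm2 and Srf, while Actg2 was not called. It raised 10 of the 39 and lowered 2, while it called 17.8% of all genes (7.5% higher and 10.3% lower), with a median log2 fold change of 0.21 for the 39 and 0.01 for all genes. This count rests on the spread that all libraries share: it was 21 higher and 5 lower without either DKO DMSO library or with WT libraries fitted alone, 5 higher and 1 lower without the WT DMSO library at 4 days, 7 and 1 without that at 2 days, and 3 and 3 on TPM values. The difference between the CP1 effects, DKO minus WT, was called lower for 32 and higher for 3, while 42.4% of all genes were called (22.3% lower and 20.1% higher), and the median was -1 beside 0.01. On TPM values that split was 16 lower and 4 higher. Under CP1, 21 of the 39 were lower and 7 higher in DKO than in WT cells, while 59.5% of all genes were called (30.6% lower and 28.9% higher), with medians of -0.38 and -0.01. The split was 13 lower and 9 higher on TPM values, and 4 were called higher without either DKO CP1 library at 4 days or without the second WT CP1 library at 4 days. The 39 genes together took 1.46 to 1.47% of all counts in WT DMSO, 1.84 to 1.91% in WT CP1, 2.31 to 2.64% in DKO DMSO and 1.46 to 1.58% in DKO CP1.

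**Figure D1:**
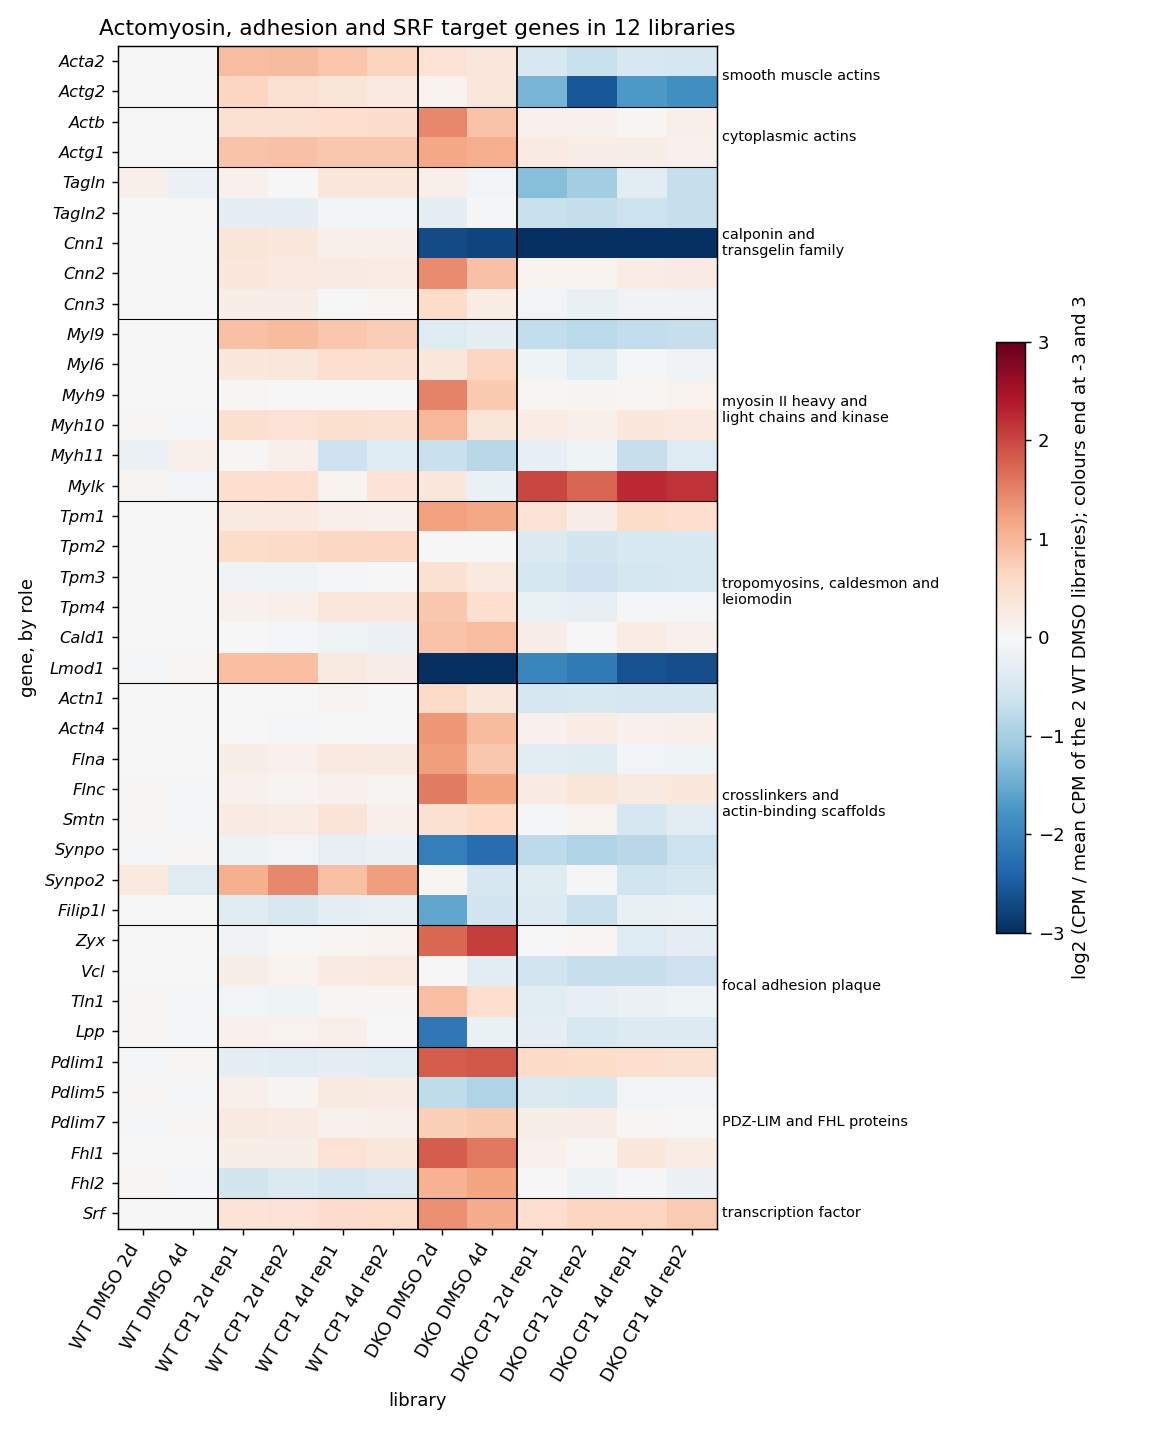
Log2 ratio of each gene's CPM to its mean in the 2 WT DMSO libraries, for 39 genes (rows, grouped by role) in 12 libraries (columns). DKO DMSO columns are mostly red and DKO CP1 columns pale or blue; Cnn1 and Lmod1 are blue in every DKO library and Mylk is red in the DKO CP1 libraries.

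CP1 moved 8 genes up in WT cells and down in DKO cells: Acta2, Actb, Actg1, Myl9, Myl6, Myh10, Tpm2 and Srf. The difference was also called for each, which follows from called effects of opposite sign and is no further support. These 8 genes are 20.5% of the 39, while 421 of all 16595 genes (2.54%) rose in WT and fell in DKO cells. The CP1 effects in WT and in DKO cells use separate libraries. CP1 lowered Pdlim1 and Fhl2 in both genotypes and raised Lmod1 in both, the difference for Lmod1 not being called (0.13, SE 0.30, edgeR adjusted p = 0.752). Another 25 genes were called in DKO cells alone, Synpo2 in WT cells alone, and Myh11 and Lpp in neither, which does not show that these effects differ except where the difference was called. Over all 16595 genes, 6826 were called in DKO cells alone, 1172 in WT cells alone and 6815 in neither, while 461 fell and 358 rose in both genotypes. The set that rose in WT and fell in DKO held 16 genes without the DKO DMSO library at 2 days, 17 without that at 4 days, and 16 with each genotype fitted alone. It held 4 without the WT DMSO library at 4 days (Acta2, Actg1, Myl9 and Tpm2) and 2 on TPM values (Acta2 and Actg1).

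**Figure D2:**
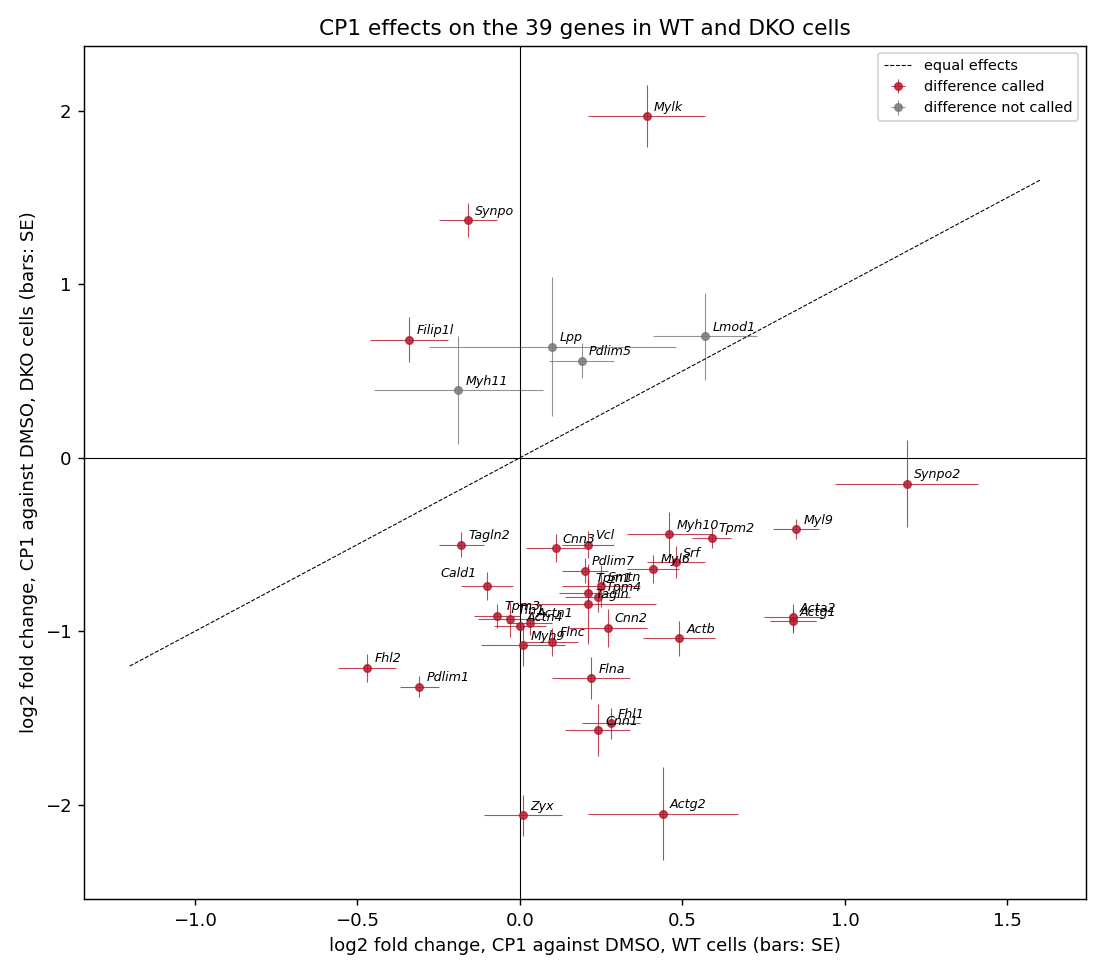
Log2 fold change of CP1 against DMSO in DKO cells (vertical axis) against that in WT cells (horizontal axis) for the 39 genes, with SE bars; red points have a called difference and the dashed line marks equal effects. Most genes lie right of and below the 0 marks, among them Acta2 at 0.84 in WT and -0.92 in DKO cells, and Mylk and Synpo lie far above the line.

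In the values that follow, DMSO libraries are given in the order 2 days, 4 days, and CP1 libraries in the order of both repeats at 2 days, then both at 4 days. Actb and Actg1 encode the cytoplasmic actins that make up the filaments of all cells. Per kilobase of transcript they ranked first and second among the 39 in each genotype and treatment, at 548 and 373 CPM per kilobase in WT DMSO. Actb measured 1458 and 1478 CPM in WT DMSO, 2029, 2022, 2079 and 2114 in WT CP1, 3957 and 2671 in DKO DMSO, and 1609, 1608, 1536 and 1621 in DKO CP1. The WT CP1 libraries lay above the WT DMSO libraries, and the DKO CP1 libraries below both DKO DMSO libraries but above WT DMSO. Actb was higher in DKO than in WT DMSO by a log2 difference of 1.16 (SE 0.12, edgeR adjusted p = 2.39e-06), rose with CP1 in WT cells by 0.49 (SE 0.11, adjusted p = 0.00677) and fell by 1.04 in DKO cells (SE 0.10, adjusted p = 3.7e-06). The rise in WT cells was not called without either WT DMSO library (0.51 without that at 2 days, 0.47 without that at 4 days). Actg1 measured 986 and 996 CPM in WT DMSO, 1779, 1808, 1741 and 1747 in WT CP1, 2228 and 2093 in DKO DMSO, and 1168, 1131, 1115 and 1080 in DKO CP1. No library of any of the 4 combinations of genotype and treatment overlapped another for Actg1. Its CP1 effect was 0.84 in WT cells (SE 0.07, edgeR adjusted p = 4.43e-06) and -0.94 in DKO cells (SE 0.07, adjusted p = 3.05e-07), a difference of -1.78 (SE 0.10, adjusted p = 5.96e-08). The coding parts of the actin genes are near copies of each other, and reads could be split between them. The copy Actg-ps1 had 5 to 22 counts in a library, while Actg1 had at least 19328.

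Acta2, the smooth muscle actin, measured 628 and 616 CPM in WT DMSO, 1184, 1203, 1106 and 983 in WT CP1, 837 and 789 in DKO DMSO, and 448, 394, 445 and 438 in DKO CP1. It was highest in WT CP1 and lowest in DKO CP1, and the 4 sets did not overlap. Its log2 fold change with CP1 was 0.84 in WT (SE 0.09, edgeR adjusted p = 2.05e-05) and -0.92 in DKO cells (SE 0.08, adjusted p = 1.75e-06). Between genotypes in DMSO it differed by 0.39 (adjusted p = 0.00338), which was not called on TPM values (0.13) or without the WT DMSO library at 2 days (0.30). Actg2, the enteric smooth muscle actin, was scarce at 0.377 to 3.43 CPM and fell with CP1 in DKO cells by 2.05 (SE 0.27, adjusted p = 4.07e-05), and its effect of 0.44 in WT cells was not called (adjusted p = 0.223).

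**Figure D3:**
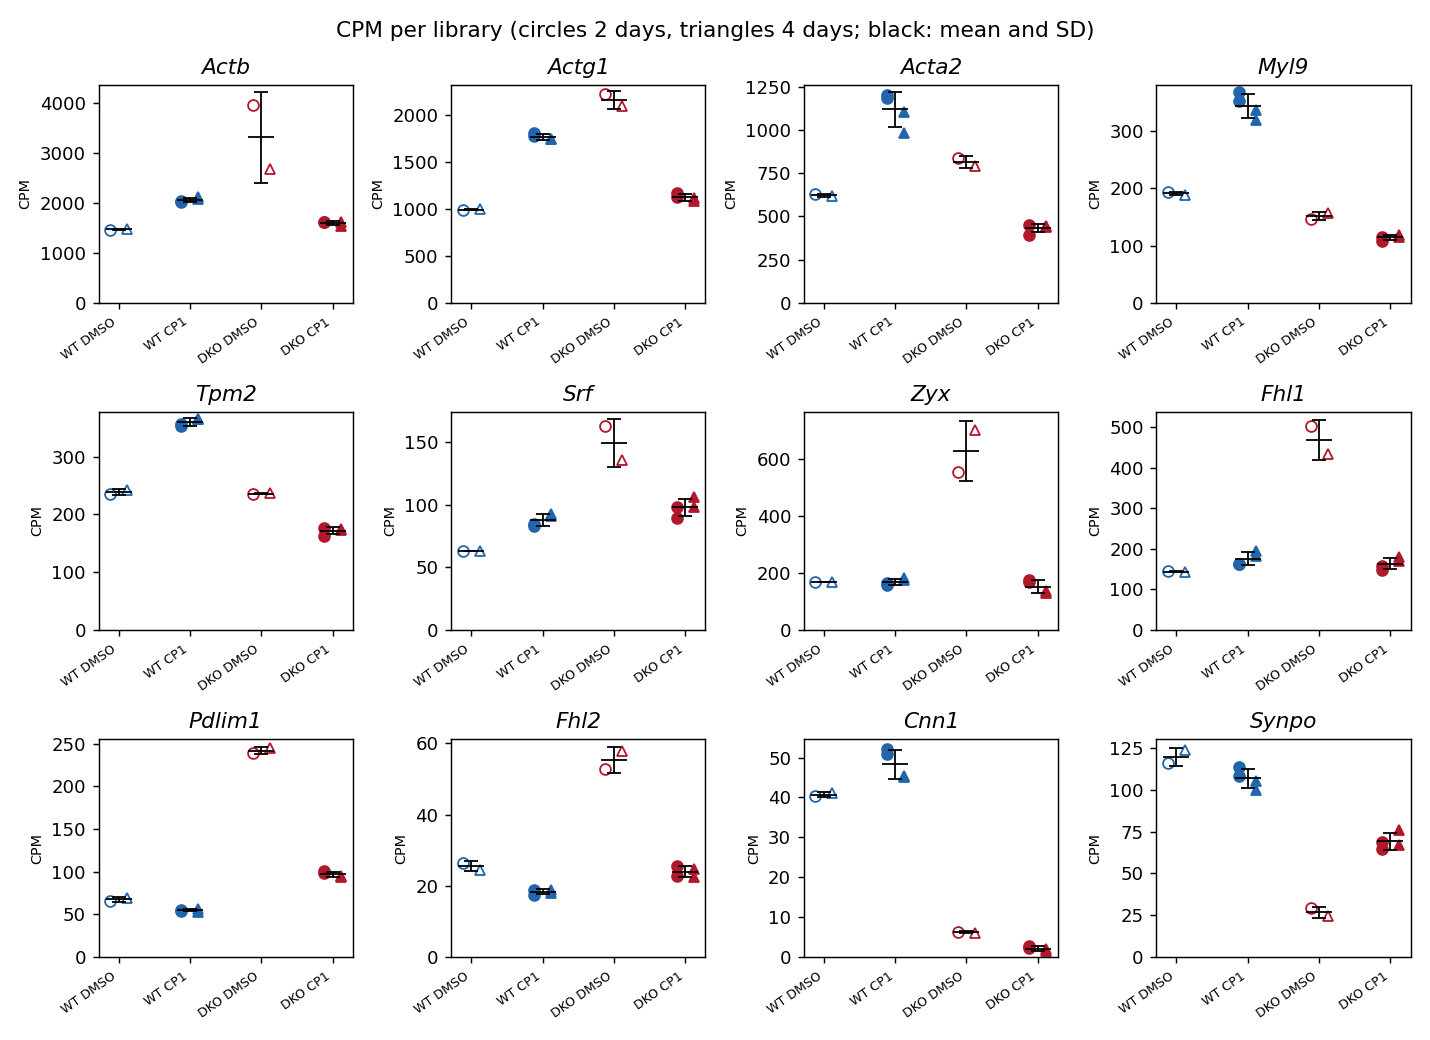
CPM of 12 of the genes in each library by genotype and treatment, with circles for 2 days, triangles for 4 days and black bars for mean and SD (2 DMSO and 4 CP1 libraries per genotype). Actb, Actg1, Acta2, Myl9, Tpm2 and Srf lie higher in WT CP1 than in WT DMSO and lower in DKO CP1 than in DKO DMSO, while Zyx and Fhl1 are highest in DKO DMSO.

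Myl9 and Myl6, the myosin II light chains among the genes described here, rose with CP1 in WT cells and fell in DKO cells. Myl9, a regulatory light chain whose phosphorylation starts contraction, measured 193 and 189 CPM in WT DMSO, 352, 368, 336 and 320 in WT CP1, 147 and 157 in DKO DMSO, and 114, 109, 115 and 118 in DKO CP1. Every WT CP1 library lay above, and every DKO library below, the WT DMSO libraries. CP1 raised it in WT cells by 0.85 (SE 0.07, edgeR adjusted p = 1.49e-06) and lowered it in DKO cells, where it fell by 0.41 (SE 0.06, adjusted p = 0.000158). Under CP1 it was lower in DKO than in WT cells, with a log2 difference of -1.59 (SE 0.05, adjusted p = 6.33e-11). Myl6, an essential light chain, rose by 0.41 in WT and fell by 0.64 in DKO cells, the rise not being called without the WT DMSO library at 4 days (0.34) or on TPM values (0.22). Of the nonmuscle heavy chains, Myh10 rose by 0.46 in WT and fell by 0.44 in DKO cells. Neither call for Myh10 was stable: the first was lost on leaving out any 1 of the 6 WT libraries (0.42 to 0.51), and the second without the DKO DMSO library at 2 days (-0.05). Myh9 was at 1312 to 1344 CPM in all WT libraries, 3719 and 2271 in DKO DMSO and 1351 to 1415 in DKO CP1. Myh9 was higher in DKO than in WT DMSO (log2 difference 1.16, SE 0.15, adjusted p = 1.32e-05) and fell by 1.08 with CP1 in DKO cells. Mylk, the kinase of the light chains, went the other way: it was at 5.03 to 8.21 CPM in WT and DKO DMSO libraries and WT CP1 libraries and at 19.5 to 27.6 CPM in DKO CP1. Its CP1 effect in DKO cells was 1.97 (SE 0.18, adjusted p = 1.82e-06), or 3.92-fold. Myh11, the smooth muscle heavy chain, lay at 0.994 to 1.97 CPM and was called in none of these comparisons.

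Of the tropomyosins, which lie along the actin filament, Tpm2 measured 236 and 242 CPM in WT DMSO, 353, 357, 366 and 366 in WT CP1, 235 and 237 in DKO DMSO, and 176, 162, 175 and 174 in DKO CP1. The DMSO libraries of both genotypes overlapped (log2 difference -0.02, SE 0.07, edgeR adjusted p = 0.832). CP1 raised Tpm2 by 0.59 in WT cells (SE 0.06, adjusted p = 2.92e-05) and lowered it in DKO cells (log2 fold change -0.46, SE 0.06, adjusted p = 4.8e-05). Tpm1, Tpm3 and Tpm4 were higher in DKO than in WT DMSO by 1.20, 0.37 and 0.66, and fell with CP1 in DKO cells by 0.78, 0.91 and 0.80. Their effects in WT cells, 0.21, -0.07 and 0.24, were not called. Cald1 (caldesmon, which restrains myosin on actin) followed them, with 0.89 between genotypes and a fall by 0.74. Lmod1, which nucleates actin filaments in smooth muscle, was lower in DKO than in WT DMSO by a log2 difference of -3.05 (SE 0.24, adjusted p = 1.43e-07), at 1.86 and 1.87 against 14.6 and 15.9 CPM. CP1 raised Lmod1 by 0.57 in WT (adjusted p = 0.0243) and 0.70 in DKO cells (adjusted p = 0.0343). Without the DMSO library at 2 days of the same genotype these Lmod1 effects were 0.18 and 0.38 and were not called. They were also not called without either CP1 library at 2 days of the same genotype (0.51 and 0.52 in WT, 0.63 and 0.71 in DKO cells). On TPM values the effect in WT cells was 0.37 and was not called.

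The calponin and transgelin family bind along actin filaments, and all 5 fell with CP1 in DKO cells in the fit over both days. That fit called none of them in WT cells, but the fit of 8 group means called Cnn1 (0.36), Cnn2 (0.29) and Cnn3 (0.21) higher and Tagln2 (-0.28) lower in WT cells at 2 days. Cnn1, the smooth muscle calponin, was at 40.3 and 41.2 CPM in WT DMSO, 52.1, 50.9, 45.3 and 45.1 in WT CP1, 6.34 and 6.02 in DKO DMSO, and 2.34, 2.75, 1.47 and 1.90 in DKO CP1. No sets overlapped, and Cnn1 was in DKO DMSO at 15.2% and in DKO CP1 at 5.19% of its WT DMSO mean. It was lower in DKO than in WT DMSO by a log2 difference of -2.72 (SE 0.13, edgeR adjusted p = 1.87e-09), and it fell with CP1 in DKO cells (log2 fold change -1.57, SE 0.15, adjusted p = 3.3e-06). Its paralogues differed: Cnn2 and Cnn3 were higher in DKO than in WT DMSO by log2 differences of 1.16 and 0.39. The Cnn3 difference was not called without the WT DMSO library at 2 days (0.29), with DMSO libraries alone (0.35) or on TPM values (0.13). Cnn2 and Cnn3 fell with CP1 in DKO cells by 0.98 and 0.52. Tagln2 fell by 0.50 in DKO cells, and its difference between the genotypes' CP1 effects, -0.32 (adjusted p = 0.0239), turned to 0.18 on TPM values and was not called on leaving out any 1 of 5 single libraries (-0.22 to -0.32). Tagln (SM22) had only 32 to 144 counts in a library, and 62.4% of its exon bases overlap an antisense gene; with the strand setting of the counting not given, its fall by 0.84 in DKO cells (adjusted p = 0.00879) is uncertain. Without the DKO DMSO library at 2 days it was -0.40 and was not called. The difference between the CP1 effects on Tagln, -1.05, was not called without that library (-0.61) or without the WT DMSO library at 4 days (-0.75).

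Crosslinkers that bundle actin filaments were higher in DKO cells and lower again with CP1. Actn1, an alpha-actinin, measured 467 and 457 CPM in WT DMSO, 466, 459, 489 and 466 in WT CP1, 684 and 586 in DKO DMSO, and 327, 332, 325 and 328 in DKO CP1. WT libraries of both treatments overlapped, and all DKO CP1 libraries lay below them. Actn1 fell with CP1 in DKO cells by 0.95 (SE 0.07, edgeR adjusted p = 2.86e-07), and its effect of 0.03 in WT cells was not called (adjusted p = 0.862). Flnc, a filamin, was at 362 and 347 CPM in WT DMSO, 387, 374, 385 and 377 in WT CP1, 1025 and 806 in DKO DMSO, and 421, 455, 426 and 441 in DKO CP1. The DKO DMSO libraries lay above all others, and the log2 difference between genotypes in DMSO was 1.36 (SE 0.10, adjusted p = 5.18e-08), and the CP1 effect in DKO cells -1.06 (SE 0.08, adjusted p = 3.61e-07). Actn4 and Flna were higher in DKO than in WT DMSO by 1.13 and 1.05 and fell with CP1 by 0.97 and 1.27. Smtn (smoothelin) followed with 0.54 and a fall by 0.74; 16.3% of its exon bases overlap another gene, and its genotype difference was 0.24 and not called without the DKO DMSO library at 4 days.

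The actin-associated scaffold genes did not share this pattern. Synpo (synaptopodin) measured 116 and 124 CPM in WT DMSO, 108, 114, 100 and 105 in WT CP1, 29.1 and 24.5 in DKO DMSO, and 69.0, 64.6, 67.2 and 76.2 in DKO CP1. The DKO DMSO libraries were lowest and the DKO CP1 libraries lay between them and the WT libraries. Synpo was lower in DKO than in WT DMSO by a log2 difference of -2.16 (SE 0.11, edgeR adjusted p = 2.96e-09), and CP1 raised it in DKO cells by 1.37 (SE 0.10, adjusted p = 2.96e-07), or 2.58-fold. Filip1l showed the same signs, with -1.06 between genotypes and 0.68 with CP1 in DKO cells. Synpo2 (synaptopodin 2, or myopodin) was scarce, at 2.54 and 1.62 CPM in WT DMSO, 4.39, 5.66, 3.80 and 4.98 in WT CP1, 2.15 and 1.46 in DKO DMSO, and 1.61, 2.05, 1.38 and 1.45 in DKO CP1. WT CP1 libraries lay above all others. CP1 raised Synpo2 in WT cells by 1.19 (SE 0.22, adjusted p = 0.00218), and its effect in DKO cells was -0.15 (adjusted p = 0.652), a difference of -1.34 (SE 0.34, adjusted p = 0.00644). The rise was 0.98 and not called without the WT DMSO library at 4 days.

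At the focal adhesion, Zyx (zyxin, which is recruited to adhesions under tension) measured 169 and 168 CPM in WT DMSO, 157, 167, 174 and 181 in WT CP1, 555 and 705 in DKO DMSO, and 167, 175, 129 and 137 in DKO CP1. DKO DMSO libraries lay above every other library, and the rest overlapped. Zyx was higher in DKO than in WT DMSO by 1.91 (SE 0.14, edgeR adjusted p = 1.9e-07) and fell with CP1 in DKO cells by 2.06 (SE 0.12, adjusted p = 7.6e-08), to 90.5% of its WT DMSO mean. Tln1 (talin, which links integrins to actin) was higher in DKO DMSO by 0.71 and fell by 0.93. Vcl (vinculin, which binds talin) was not called between genotypes in DMSO (-0.16, adjusted p = 0.141) and fell by 0.50 in DKO cells; 25.5% of its exon bases overlap the gene Ap3m1 on the other strand. Lpp, of the zyxin family, was at 291 to 335 CPM in WT libraries and at 216 to 245 in DKO CP1, but its 2 DKO DMSO libraries stood apart, with 68.3 CPM on day 2 and 263 CPM on day 4. The CP1 effect on Lpp in DKO cells, 0.64 (SE 0.40, adjusted p = 0.23), was -0.22 without the first of these and 1.75 without the second.

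Among the PDZ-LIM and FHL adaptors, which connect actin and alpha-actinin to signalling proteins, Pdlim1 measured 65.7 and 69.3 CPM in WT DMSO, 55.2, 54.4, 55.8 and 52.9 in WT CP1, 239 and 244 in DKO DMSO, and 101, 98.3, 95.1 and 93.2 in DKO CP1. Every DKO CP1 library remained above every WT library. Pdlim1 was higher in DKO than in WT DMSO by 1.84 (SE 0.08, edgeR adjusted p = 3.92e-10), and CP1 lowered it in WT (log2 fold change -0.31, SE 0.06, adjusted p = 0.00512) and in DKO cells (-1.32, SE 0.06, adjusted p = 6.95e-09), the former not called without the WT DMSO library at 4 days (-0.26). Fhl1 measured 145 and 142 CPM in WT DMSO, 163, 162, 193 and 183 in WT CP1, 503 and 433 in DKO DMSO, and 156, 147, 179 and 169 in DKO CP1. Its levels in WT CP1 and DKO CP1 overlapped. Fhl1 was higher in DKO than in WT DMSO by 1.71 (SE 0.11, adjusted p = 2.14e-08) and fell with CP1 in DKO cells by 1.53 (SE 0.09, adjusted p = 4.45e-08).

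Fhl2, which is known to bind SRF, measured 26.5 and 24.5 CPM in WT DMSO, 17.5, 18.8, 18.1 and 19.0 in WT CP1, 52.7 and 58.0 in DKO DMSO, and 25.7, 22.9, 24.6 and 22.4 in DKO CP1. WT CP1 libraries were the lowest and DKO DMSO the highest. CP1 lowered it in WT (log2 fold change -0.47, SE 0.09, edgeR adjusted p = 0.00227) and in DKO cells (-1.21, SE 0.08, adjusted p = 1.82e-07), with a difference of -0.74 (SE 0.12, adjusted p = 0.000398). The fall of Fhl2 in WT cells was not called without the WT DMSO library at 2 days (-0.40). Pdlim7 was higher in DKO DMSO by 0.76 and fell by 0.65 in DKO cells. Pdlim5 was lower in DKO DMSO, by a log2 difference of -0.82, and rose with CP1 in DKO cells by 0.56.

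Srf itself, the transcription factor, measured 63.0 and 62.8 CPM in WT DMSO, 83.3, 84.6, 90.7 and 92.9 in WT CP1, 163 and 136 in DKO DMSO, and 89.6, 98.4, 98.6 and 106 in DKO CP1. The DKO CP1 libraries lay below DKO DMSO and overlapped WT CP1, and all CP1 and DKO libraries lay above WT DMSO. Srf was higher in DKO than in WT DMSO by 1.25 (SE 0.10, edgeR adjusted p = 2.35e-07), rose with CP1 in WT cells by 0.48 (SE 0.09, adjusted p = 0.00255) and fell with it in DKO cells by 0.60 (SE 0.09, adjusted p = 7.8e-05). Under CP1 the genotypes differed by 0.16 (SE 0.07), which was not called (adjusted p = 0.0688). At about the same size Srf was called higher in DKO cells with CP1 libraries alone (0.17, adjusted p = 0.000313), with a replicate block (0.17, adjusted p = 3.91e-05), with 8 group means (0.16, adjusted p = 0.000614) and without either DKO DMSO library. The rise of Srf in WT cells was not called without the WT DMSO library at 4 days (0.41).

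Responses at 2 and 4 days were compared with 8 group means, where the single DMSO library of a group takes its spread from the CP1 groups. CP1 lowered 31 and raised 6 of the 39 in DKO cells at 2 days (56.2% of all genes called, 29.1% lower and 27.1% higher) and lowered 30 and raised 4 at 4 days (48.6% called, 26.8% lower and 21.8% higher). In WT cells it raised 16 and lowered 4 at each day, while 25.5% of all genes were called at 2 days (11.3% higher and 14.2% lower) and 25.3% at 4 days (11.5% higher and 13.8% lower). The CP1 effect changed between the days for 24 of the 39 in DKO cells (18 higher and 6 lower at 4 days, with 27.4% of all genes called, 13.8% higher and 13.6% lower) and for 1 in WT cells (3.36% called, 0.94% higher and 2.42% lower). Those changes in DKO cells rest on the single DMSO library of each day, which differed more from each other than repeats of the DKO CP1 groups did. A change of DMSO cells with day and spread between libraries cannot be told apart here. The adjusted p-values of this test may be too small and are not given. On TPM values 1 of the 39 was called. Myh9 was at 3719 and 2271 CPM in the DKO DMSO libraries at 2 and 4 days, and its CP1 effect was -1.44 and -0.70, while its CP1 libraries differed between the days by 0.03. Actb had CP1 effects of -1.30 at 2 days and -0.76 at 4 days, with a difference of -0.03 between its CP1 libraries of the 2 days. Zyx went the other way, from -1.70 to -2.40. Lpp had an effect of 1.75 at 2 days and -0.22 at 4 days, with -0.03 between its CP1 libraries of the 2 days and 1 DMSO library at 68.3 CPM. For Acta2 and Actg1 the CP1 effect in DKO cells differed between the days by 0.15 and 0.02, and neither was called. In WT cells Lmod1 rose by 0.97 at 2 days, and its effect of 0.18 at 4 days was not called.

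**Figure D4:**
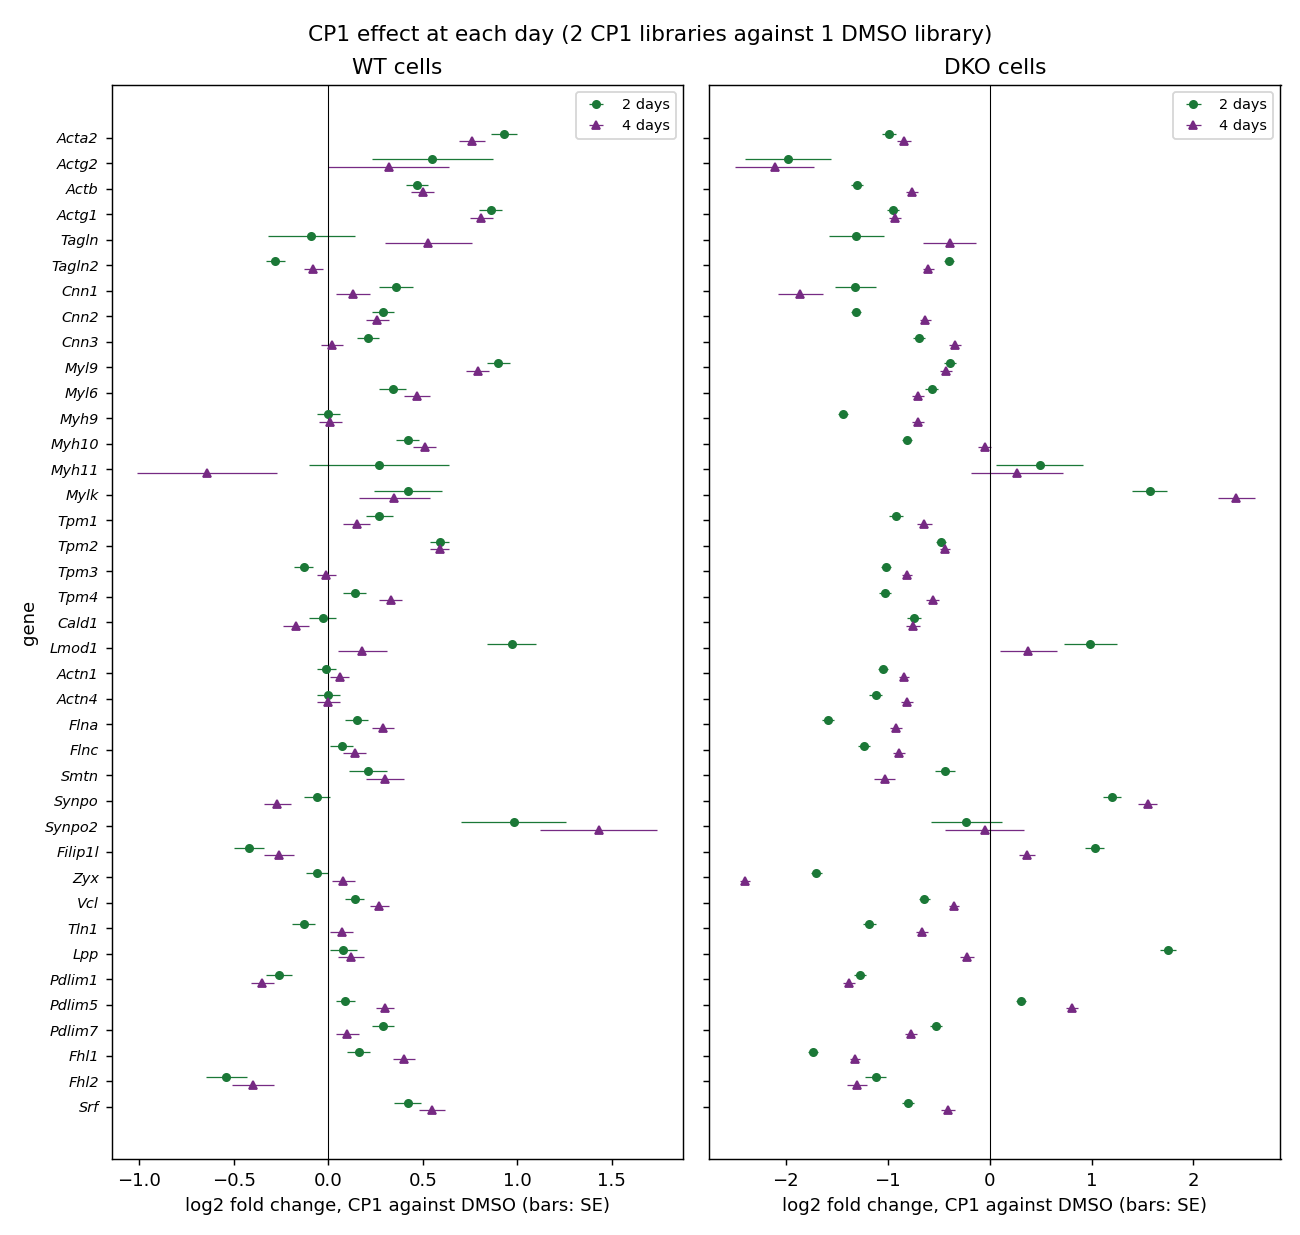
Log2 fold change of CP1 against DMSO at 2 days (circles) and 4 days (triangles) for the 39 genes in WT and DKO cells, with SE bars from the fit of 8 group means. Lpp in DKO cells lies at 1.75 at 2 days and -0.22 at 4 days, while Acta2 and Actg1 lie close together at both days.

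Between the CP1 libraries of 2 and 4 days, 8 of the 39 were higher and 4 lower at 4 days in WT cells (15.3% of all genes called, 7% higher and 8.26% lower), and 11 were higher and 5 lower in DKO cells (24.2% called, 12.1% higher and 12% lower). Without 1 of the 4 CP1 libraries of the genotype, 1 to 4 were higher in WT cells and 3 to 12 in DKO cells. In DKO cells Zyx fell by 0.36 (SE 0.05, edgeR adjusted p = 1.97e-06), Smtn by 0.46 (adjusted p = 0.000314) and Flna rose by 0.23 (adjusted p = 0.000697). Acta2 fell by 0.19 in WT cells (SE 0.06, adjusted p = 0.0254).

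Other genes of the pathway were taken from 5 lists of 98 symbols, of which 96 matched the table and 88 were tested. CP1 in DKO cells lowered 45 of these 88 and raised 14 (67% called, beside 51.9% of all genes). In WT cells it raised 11 and lowered 6 (19.3% called, close to the 17.8% of all genes). Of 5 SRF cofactors tested, DKO DMSO libraries had higher levels of 2 and lower levels of 2 than WT DMSO libraries (32.7% and 34.8% of all genes). CP1 raised 1 and lowered 1 in DKO cells (24.2% and 27.6% of all genes). Mrtfa, which encodes MRTF-A, was at 100 ± 0.889 CPM in WT DMSO, 206 ± 11.7 in DKO DMSO (SD, n = 2 each) and 134 ± 7.55 in DKO CP1 (n = 4). It was higher in DKO than in WT DMSO by 1.04 (SE 0.08, edgeR adjusted p = 1.73e-07) and fell with CP1 in DKO cells by 0.62 (SE 0.07, adjusted p = 1.04e-05). Mrtfb, the other MRTF, was lower in DKO DMSO (-0.45, SE 0.08, adjusted p = 0.000377). Elk4, an SRF partner of the ETS family, was also lower (-0.70, SE 0.12, adjusted p = 0.000264) and rose with CP1 in DKO cells by 0.33 (adjusted p = 0.0242). Pfn1 (profilin, which feeds monomers to growing filaments) was higher in DKO DMSO by 1.17 and fell by 0.96 with CP1, and Cfl1 (cofilin, which severs filaments) by 1.11 and 1.08. Of 32 other adhesion and LIM genes, CP1 lowered 18 and raised 4 in DKO cells (27.6% of all genes lower and 24.2% higher), and raised 5 and lowered 3 in WT cells (7.5% of all genes higher and 10.3% lower). Csrp1, a LIM protein, fell by 0.93, from 287 ± 15.6 CPM in DKO DMSO (SD, n = 2) to 150 ± 8.96 in DKO CP1 (n = 4). Tns1 (tensin) went the other way: it was lower in DKO than in WT DMSO by a log2 difference of -3.25 and rose with CP1 by 2.36 (SE 0.12, adjusted p = 1.23e-08). Ilk fell by 2.31, but 76.7% of its exon bases overlap Taf10. Among the paralogues of the 39 genes, Synpo2l, a relative of Synpo2, went from 0.123 CPM in WT DMSO to 19.3 in DKO DMSO and 2.19 in DKO CP1.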

How the data were processed

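Tables of counts and of TPM for 12 MEF libraries of total RNA were used. The submitters' processing notes name featureCounts 1.5.2 and mm10; the aligner and the strand setting are not given in the sources used here. The deposited counts are whole numbers and not normalized. The deposited TPM values are the authors' counts over gene length, rescaled to 1 total in every library, which was checked on the tables. There were 0 columns without a sample.

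TMM scaling was applied to the counts, and the test was edgeR 4.0.16 (quasi-likelihood, robust) under R 4.3.3, with a minimum count of 10 and total of 15, which removed 15573 genes, and Benjamini-Hochberg adjustment over all 16595 genes tested at a threshold of 0.05. The model held 4 means of genotype and treatment and a day term per genotype, with 6 residual degrees of freedom. Comparisons at each day used 8 group means with 4 residual degrees of freedom. SE is the log2 fold change over the root of F. The scripts were tested on simulated data. Alternatives used DESeq2 1.42.0, limma 3.58.1 on log2(TPM + 1) and other filters, scalings and fits.

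Values in every library are given for Srf, Acta2, Actb, Actg1 and the genes among the 5 smallest p in any of 4 comparisons (CP1 in WT, CP1 in DKO, their difference, genotype in DMSO). Of each other list, genes named are among the 3 called with the smallest p. Tagln, Tagln2, Lpp, Mylk and other genes with library values outside this rule were picked once their values had been seen. The symbol Myl12b, with 2 rows in the table, was left out. The counts of 1 of the other lists are not reported here. The 39 genes and the lists were chosen with earlier results of these data known. Repeat numbers did not pair the samples: the deviations of equal numbers correlated by -0.0401 to 0.0171.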

Additional observations from a re-analysis of the deposited data

Results flagged for a closer look

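The difference between the CP1 effects in DKO and in WT cells was tested itself, and 35 of the 39 genes passed (edgeR, adjusted over all genes). For the actins the difference (DKO effect minus WT effect, log2) was -1.53 for Actb, -1.78 for Actg1, -1.76 for Acta2 and -2.48 for Actg2. For the myosin genes it was -1.26 for Myl9, -1.04 for Myl6, -1.09 for Myh9, -0.91 for Myh10 and 1.58 for Mylk. For tropomyosins and caldesmon it was -0.99 for Tpm1, -1.05 for Tpm2, -0.84 for Tpm3, -1.03 for Tpm4 and -0.65 for Cald1. In the calponin and transgelin family it was -1.05 for Tagln, -0.32 for Tagln2, -1.82 for Cnn1, -1.26 for Cnn2 and -0.63 for Cnn3. For crosslinkers and scaffolds it was -0.97 for both Actn1 and Actn4, -1.49 for Flna, -1.17 for Flnc, -1 for Smtn, 1.53 for Synpo, -1.34 for Synpo2 and 1.02 for Filip1l. At adhesions and in the adaptors it was -2.07 for Zyx, -0.70 for Vcl, -0.89 for Tln1, -1.01 for Pdlim1, -0.85 for Pdlim7, -1.81 for Fhl1 and -0.74 for Fhl2, and -1.09 for Srf. The difference for Tagln was not called without the DKO DMSO library at 2 days (-0.61) or the WT DMSO library at 4 days (-0.75), and that for Tagln2 on leaving out any 1 of 5 single libraries (-0.22 to -0.32).

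The CP1 effect in DKO cells also differed between the days by at least 0.5 on the log2 scale in 12 genes, in the fit of 8 group means. That fit has 1 DMSO library a day, whose spread is taken from the CP1 groups, so its p-values are too small where DMSO libraries vary more, and on TPM values 1 of the 39 genes was called. Between the DKO CP1 libraries of the 2 days, Lpp differed by -0.03, Myh9 by 0.03, Myh10 by 0.13 and Actb by -0.03. The change from 2 to 4 days was -1.97 for Lpp, 0.76 for Myh10, 0.74 for Myh9, -0.71 for Zyx, 0.68 for Cnn2, 0.67 for Flna, 0.54 for Actb, 0.50 for Pdlim5, 0.53 for Tln1, -0.66 for Filip1l, -0.59 for Smtn and 0.84 for Mylk. In WT cells 1 gene passed this test, Lmod1 with -0.79.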

How the results depend on the processing

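The fall of the members with CP1 in DKO cells (31), their rise by genotype in DMSO (24) and the difference of CP1 effects (32 lower) stayed within 1.5 times under other scalings, DESeq2, filters and 8 means, except the last, which was 16 on TPM values. TPM moved the median of all genes by more than 0.1 on the log2 scale (-0.23 for genotype in DMSO, -0.14 for CP1 in WT, 0.23 for CP1 in DKO, 0.38 for the difference, 0.19 for genotype under CP1). Genes typed miRNA or rRNA took up to 25.6% of TPM in WT CP1 libraries, and TPM without those genes was added after seeing the data, as was the change of the CP1 effect with day. The members called higher and lower were, for CP1 in WT, 3 and 3 on TPM, 18 and 2 without rRNA and miRNA genes, 22 and 5 with 8 means, 21 and 5 with WT libraries alone. The difference was called higher for 5 with 8 means or no filter. Genotype under CP1 was lower for 13 on TPM, and genotype in DMSO lower for 9 on TPM, 9 with 8 means and 11 without rRNA and miRNA genes. Genes up in WT and down in DKO numbered 2 on TPM, 13 without those genes or with no filter, 18 with 8 means and 16 with each genotype alone. By day, counts on TPM were 4 and 1 in WT at 2 days, 0 and 1 at 4 days, 20 lower in DKO at 2 days and 12 at 4 days; without rRNA and miRNA genes they were 2 lower at 2 days and 1 at 4 days in WT cells. The change with day in DKO was higher for 0 and lower for 1 on TPM; in WT lower for 0 on TPM, without those genes and by DESeq2. CP1 libraries by day gave in WT 0 and 1 on TPM, 4 and 1 without those genes and 2 lower by DESeq2; in DKO 0 and 0 on TPM, 7 higher without those genes, and 6 and 2 by DESeq2.

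Leaving out 1 library gave ranges of 22 to 24 higher and 6 to 8 lower for genotype in DMSO, 5 to 21 and 1 to 5 for CP1 in WT, 4 to 6 and 30 to 31 for CP1 in DKO, 3 to 4 and 30 to 32 for the difference, 4 to 8 and 21 to 28 for genotype under CP1, and 4 to 17 for genes up in WT and down in DKO. For day in WT CP1 they were 1 to 12 and 1 to 8, for day in DKO CP1 3 to 12 and 2 to 5, for CP1 in WT 14 to 19 and 4 to 6 at 2 days and 15 to 19 and 2 to 5 at 4 days, for CP1 in DKO 6 and 31 at 2 days and 4 and 30 at 4 days, and for the change with day 0 to 5 and 1 to 2 in WT and 15 to 20 and 4 to 7 in DKO. Directions reversed on TPM for Tagln2 (difference 0.18), Cnn3 (genotype under CP1, 0.00), Zyx (-0.02), Vcl (-0.02), Tln1 (0.00) and Pdlim5 (-0.01) between days in WT CP1, Cnn2 (CP1 in WT at 4 days, 0.00) and Lpp (CP1 in DKO at 4 days, 0.06), and without rRNA and miRNA genes for Myh10 (0.23) and Lpp (0.05) at 4 days in DKO cells. Without the DKO DMSO library at 2 days Lpp turned to -0.22 with CP1 in DKO and -0.32 in the difference; without that at 4 days these were 1.75 and 1.65. The causes were not tested.

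Repeat numbers share nothing that the labels name. With the number as a replicate block among CP1 libraries, members were 9 higher and 28 lower by genotype (8 and 28 without the block), 8 and 4 by day in WT and 11 and 5 by day in DKO cells. CP1 against DMSO could not be paired, since DMSO groups hold 1 library. Depth limits Actg2, Myh11, Synpo2 and Tagln most, with 7 to 144 counts in a library.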
